A study of Mus musculus with 7 samples.

Results

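Beta-catenin, the DNA-binding TCF/LEF factors it works with and a set of genes downstream of them were compared between 2 epithelia of the mouse forelimb bud. The 10 genes were Ctnnb1, Lef1, Tcf7, Tcf7l1, Tcf7l2, Axin1, Axin2, Nkd1, Nkd2 and Cdx1. They were taken by name from the gene name column of the scanner files, with all of their non-control probes, which gave 17 of 55681 probes and 10 of the 20828 genes tested. All 17 probes passed the filter on dim signals. The AER (apical ectodermal ridge), a thickening of the epithelium along the bud's rim, was microdissected from C57/Bl6 embryos at embryonic day 11.5 and measured on 3 arrays. Surface ectoderm of the posterior limb, of the same strain and age, was measured on 4 arrays (here Ectoderm). Tissue of 2 to 3 mice was pooled for each replicate, so the p-values measure the spread between pools if each replicate is a separate pool. No allele or treatment is named for either group. Ectoderm replicates 2 and 4 were the closest pair of arrays (r = 0.995 across genes) and share a number in the names of their deposited files; whether they are separate pools was not tested, and they were counted as 2 samples. With them averaged into 1 sample, 2266 genes passed the threshold described below, against 3266, and the members past it were 3 higher and 2 lower, without Axin2 (limma adjusted p = 0.113).

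In the canonical WNT pathway, cytoplasmic beta-catenin is held down by a destruction complex built on the scaffold Axin1 with APC, GSK3 and casein kinase 1. When WNT ligands bind their receptors, beta-catenin escapes degradation, enters the nucleus and binds TCF/LEF proteins on the DNA. Lef1 and Tcf7 often act there as activators, while Tcf7l1 is known mostly as a repressor and Tcf7l2 can do either. Axin2, Nkd1 and Nkd2 are negative regulators that act on the same pathway, and Axin2 and Nkd1 are often induced by it. In the mouse limb, WNT and beta-catenin in the ectoderm are needed to form and keep the AER.

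The members were read through 60-base probes. Probes of 5 genes that passed the threshold are shown as examples of what was measured, with their position on the mm9 build. For Lef1 (probe 1, which gives the second reading of the gene beside probe 2; chr3:130907851-130926012, plus strand), Tcf7l2 (chr19:55994029-55994088, plus strand) and Axin2 (chr11:108803927-108803986, plus strand) the whole probe is given. For Tcf7 (probe 1 at chr11:52066114-52066173 and probe 2 at chr11:52066738-52066797, minus strand) and Tcf7l1 (chr6:72576377-72576436, minus strand) the first 30 of the 60 bases are given.
Lef1 probe 1: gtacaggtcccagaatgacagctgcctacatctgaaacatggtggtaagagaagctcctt
Tcf7 probe 1: ttttttcattctcgctgtagatagcctgaa
Tcf7 probe 2: ccaatacttcttggaccaagaatacctggt
Tcf7l1 probe 1: tggtttttggaacaatttaaactcccagtt
Tcf7l2 probe 2: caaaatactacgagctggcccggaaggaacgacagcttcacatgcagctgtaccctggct
Axin2 probe 1: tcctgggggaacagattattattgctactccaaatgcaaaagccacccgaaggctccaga
The match of Lef1 probe 1 spans 18162 bases of the genome, so it crosses an intron. The 3 probes of Tcf7l2 lie far apart, with 176697 and 12549 bases between neighbours. The TCF/LEF factors are related proteins. The longest run of bases shared by probes of different members was 12, between Lef1 probe 2 and Tcf7l2 probe 3, over 112 pairs of the 16 probes compared, which leave out that of Cdx1.

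Values below are log2 processed signals relative to the 75th percentile of the same array, which was 341 to 563 signal units on the AER arrays and 257 to 444 on the Ectoderm arrays. A value of 0 is thus the 75th percentile of an array. No probe was saturated. Repeated spots of 1 probe had a typical SD of 0.176 and 0.178 (log2) on AER replicates 1 and 2, and 0.0583 to 0.0635 on the other arrays. Of all genes tested, 3266 (15.7%) differed between the groups at an adjusted p below 0.05 (limma's moderated test, Benjamini-Hochberg over all genes), 1464 (7.03%) higher and 1802 (8.65%) lower in AER. That split moved to 1933 higher and 1435 lower with the 75th percentile taken over detected probes, to 1718 and 1522 with quantile normalization, and to 1971 and 1767 in the authors' processed values.

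The tissue labels were set against marker genes. All 12 AER markers were higher in AER (Fgf8, the ridge growth factor, by 7.01 on the log2 scale). Of these, Sp9 and En1 were above background on no Ectoderm array and passed the filter on dim signals through the AER arrays alone. The marker lists were chosen with earlier results of these data known, so their counts are no independent check of the labels. Epithelial markers were present in both groups, but 13 of 14 were higher in AER, with a summed linear level of 187 to 205 on the AER arrays and 67.1 to 101 on the Ectoderm arrays. Limb mesenchyme markers ran the other way: 10 of 12 were lower in AER, with a summed level of 205 to 236 on the AER arrays and 447 to 704 on the Ectoderm arrays. For muscle precursors 7 of 7 were lower, with 0.471 to 3.45 on the AER arrays and 49.4 to 130 on the Ectoderm arrays. None of 6 endothelial, 6 erythroid and 4 macrophage markers passed the threshold in limma's test, with 0, 2 and 0 of them at an unadjusted p below 0.05. Of 5 neural crest and melanoblast markers, 1 (Dct) was higher. Ectoderm replicate 3 had the highest mean AER marker level of the Ectoderm arrays, -0.58, and the lowest was -2.19.

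These marker differences bear on every value below, because each array holds RNA of a whole dissected piece. In such bulk samples fewer cells of a type and less RNA per cell cannot be told apart. As a measure of how far the scale matters, the arrays were also centred on the mean of the 14 epithelial genes, which moved the median difference of all genes to -1.94, against -0.083 as scaled here. The part of the other cells in the differences was not tested. Where this centring turned a direction round, the value is given beside it.

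Of the 10 members, 4 rose in AER (Lef1, Tcf7, Axin2 and Cdx1) and 2 fell (Tcf7l1 and Tcf7l2), while 4 did not pass the threshold, where 15.7% of all genes passed it. With epithelial centring 0 rose and 8 fell, where 172 of all 20828 genes rose and 19998 fell. As scaled to the 75th percentile, Lef1, Tcf7, Axin2 and Cdx1 were thus higher in AER relative to the bulk of genes. At the probes that stand for them, they were not higher relative to epithelial genes. For Axin2 the difference minus the median of all genes was only 0.073 in the authors' values and 0.14 with the normexp background. Of the 4 genes, Lef1 and Axin2 were called lower with epithelial centring. Tcf7 (-0.056, limma adjusted p = 0.845) and Cdx1 (-0.55, adjusted p = 0.0636) were not. The median difference of the members was 0.21, against -0.083 over all genes. The arrays of the groups did not overlap for 6 of 10 members, against 30.3% of all genes. The members were chosen with earlier results of these data known, so these shares are no independent support. The members that rose and fell split within the TCF/LEF family, as the plot of single arrays shows.

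**Figure D1:**
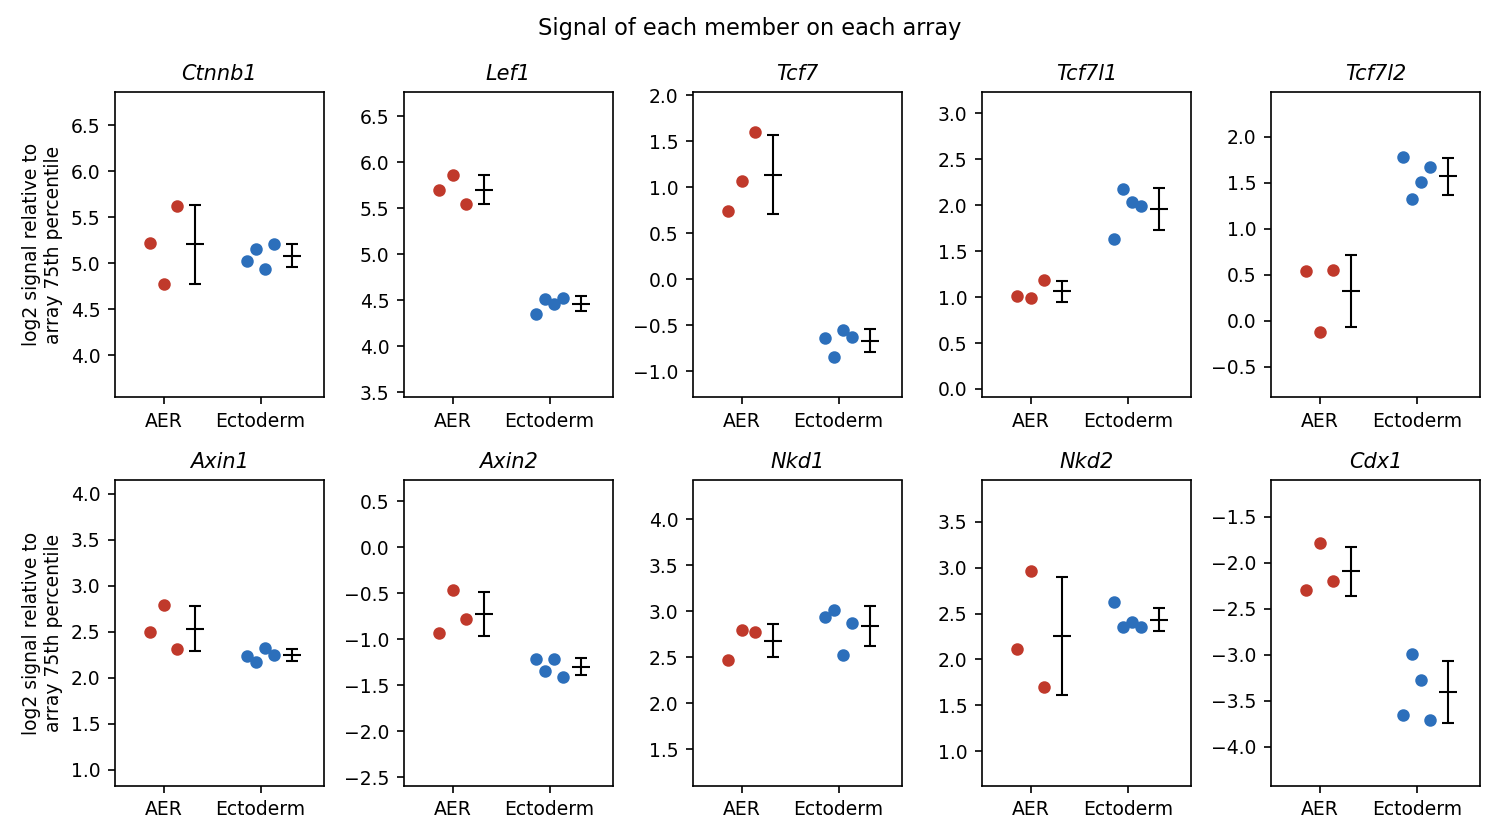
Log2 signal relative to the array's 75th percentile (vertical axis, of equal height in every panel) of each of the 10 genes on the 3 AER arrays (red) and 4 Ectoderm arrays (blue), with the mean and SD in black. Lef1, Tcf7, Axin2 and Cdx1 sit higher and Tcf7l1 and Tcf7l2 lower on every AER array, and the other 4 genes overlap. With epithelial centring none of the 4 higher genes stays higher. Lef1 and Axin2 were then called lower, while Tcf7 (-0.056) and Cdx1 (-0.55) were not.

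Lef1, an HMG-box factor through which beta-catenin activates target genes, was higher in AER at both of its probes as scaled to the 75th percentile. Probe 2, which stands for the gene (chr3:130926200-130926259, plus strand), gave processed signals of 17677, 32753 and 18362 units on the AER arrays and 8325, 10155, 5633 and 7939 units on the Ectoderm arrays. Scaled to each array, these were 5.70, 5.86 and 5.55 on the AER arrays and 4.35, 4.52, 4.46 and 4.52 on the Ectoderm arrays (log2). Every AER array was above every Ectoderm array, and the arrays of each group lay close together. Lef1 was 2.36-fold higher in AER (log2 difference 1.24, 95% CI 0.92 to 1.57; limma adjusted p = 0.000591), but -0.62 with epithelial centring (adjusted p = 0.0234).

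The other Lef1 probe, 187 bases upstream and split by the intron, gave 4.26, 4.47 and 3.92 on the AER arrays and 2.70, 2.66, 2.54 and 2.89 on the Ectoderm arrays. The groups again did not overlap. Its difference was 1.52 (95% CI 1.12 to 1.93; adjusted p = 0.000613 in limma's fit over all 28282 kept probes, of which 15.0% passed), and -0.34 with epithelial centring. Both probes thus moved the same way under each of these scalings.

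Tcf7, the T-cell factor TCF1, showed the largest difference of the 10 genes as scaled to the 75th percentile, but not in the authors' values (Lef1 1.70, Tcf7 1.48), with normexp (1.49 and 1.47) or with epithelial centring. Probe 1, which stands for the gene, gave 0.74, 1.07 and 1.60 on the AER arrays and -0.64, -0.85, -0.56 and -0.63 on the Ectoderm arrays. The 4 Ectoderm arrays were near each other, while the AER arrays were more spread, with replicate 3 highest. Tcf7 was 3.50-fold higher in AER (95% CI 2.51 to 4.88; log2 difference 1.81; limma adjusted p = 0.000642), and -0.056 with epithelial centring (adjusted p = 0.845).

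At probe 2, 564 bases away, Tcf7 gave -2.08, -1.29 and -1.23 on the AER arrays, all above background, and -3.80, -3.94, -3.54 and -4.21 on the Ectoderm arrays. It was well above background on no Ectoderm array, so the Ectoderm level is not known there. Each Ectoderm array was taken at its own signal for the probe or at the lowest signal of any detected probe on that array, whichever was higher. The level in AER was then 4.83-fold higher. This is no strict bound, as the fold was 2.29 in the authors' values and 2.21 with normexp. The probe passed the filter on dim signals through the AER arrays alone, so no p-value is given for it. Its fitted difference was 2.34, and it was 1.19 in the authors' values and 0.48 with epithelial centring.

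Tcf7l1, the factor TCF3, was lower in AER. It gave 1.01, 0.99 and 1.19 on the AER arrays and 1.63, 2.18, 2.04 and 1.99 on the Ectoderm arrays. The 3 AER arrays lay within a narrow range below every Ectoderm array, and the lowest Ectoderm array was replicate 1. The level was 1.86-fold lower in AER (log2 difference -0.90, 95% CI -1.28 to -0.51; limma adjusted p = 0.00768).

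Tcf7l2, the factor TCF4, was also lower, by its probe 2, with 0.54, -0.12 and 0.56 on the AER arrays and 1.78, 1.32, 1.50 and 1.67 on the Ectoderm arrays. The groups did not overlap, and AER replicate 2 was the lowest array. The gene was 2.37-fold lower in AER (95% CI 1.70 to 3.31; log2 difference -1.25; limma adjusted p = 0.00457).

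The other Tcf7l2 probes lay on either side of probe 2. Probe 1, the most upstream (chr19:55817272-55817331), gave 0.44, -0.63 and 0.11 on the AER arrays and 1.17, 0.61, 0.83 and 0.79 on the Ectoderm arrays. The arrays did not overlap, but its difference of -0.88 did not pass the threshold (adjusted p = 0.0560, limma over all kept probes). Probe 3, the most downstream (chr19:56006638-56006697), lay nearer to background, at -3.24, -3.61 and -2.52 on the AER arrays and -1.63, -1.39, -2.40 and -1.83 on the Ectoderm arrays. Its difference was -1.30 (adjusted p = 0.0232), and -0.53 in the authors' values (adjusted p = 0.0599). All 3 probes were lower in AER in sign, and Ectoderm replicate 3 came close to AER replicate 3 at probe 3.

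**Figure D2:**
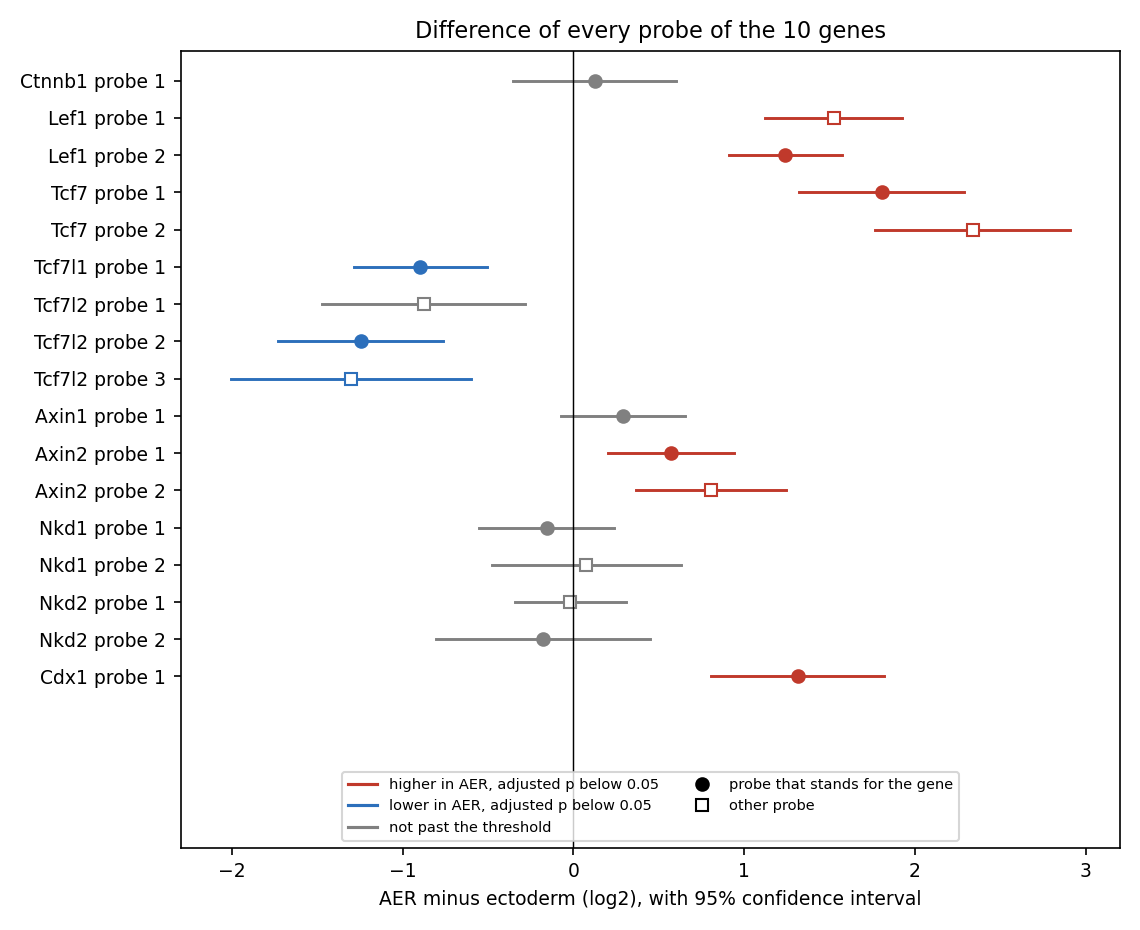
AER minus Ectoderm difference in log2 signal (horizontal axis) of all 17 probes of the 10 genes, with 95% confidence intervals. Filled circles mark the probe that stands for a gene. As scaled to the 75th percentile, Lef1, Tcf7 and Axin2 each have both probes to the right of 0, while the 3 Tcf7l2 probes lie to the left. Tcf7 probe 2 passed the filter on dim signals through the AER arrays alone, so its interval and colour do not count as a test. Centring on epithelial genes moves Lef1, Axin2, Cdx1 and Tcf7 probe 1 to the left of 0, the last only to -0.056.

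The split within the TCF/LEF family can be read without a scaling factor per array, as the ratio of 2 probes on the same array. The level of such a ratio has no meaning between probes, but its change between the dissected pieces can be read. The ratio of Lef1 to Tcf7l1 was higher by 2.14 (log2) on the AER arrays than on the Ectoderm arrays, and that of Lef1 to Tcf7l2 by 2.49. For Tcf7 the ratio to Tcf7l1 was higher by 2.70 and that to Tcf7l2 by 3.05. None of these 4 ratios overlapped between the groups, and a factor applied to a whole array, epithelial centring included, cancels in them. Quantile normalization and the authors' values do not cancel: the 4 differences were 2.33, 2.69, 2.68 and 3.04 with quantile normalization and 2.56, 2.90, 2.34 and 2.67 in the authors' values, in the same order. Within each side of the split the shifts were smaller: the ratio of Lef1 to Tcf7 differed by -0.56 (0.22 in the authors' values) and that of Tcf7l1 to Tcf7l2 by 0.35, with overlap for the last. These ratios restate the values above, and no test was made on them. The mix of cells in a dissected piece does not cancel in them. Mesenchyme and muscle markers were higher on the Ectoderm arrays, as given above, and the part of those cells in the ratios was not tested.

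**Figure D3:**
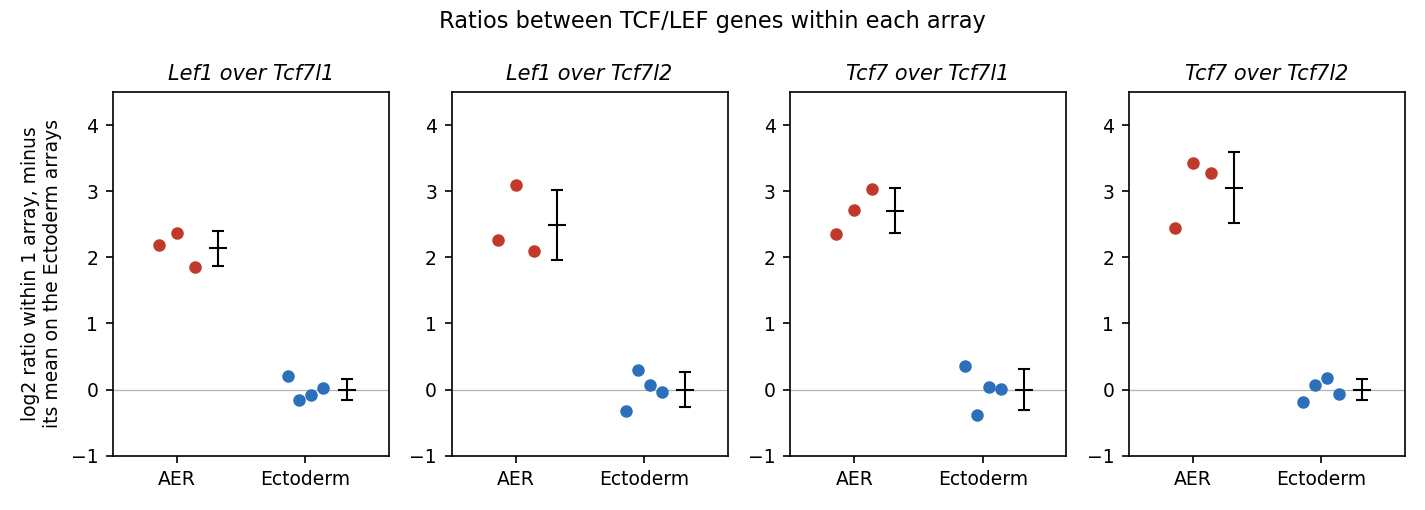
Log2 ratio of Lef1 or Tcf7 over Tcf7l1 or Tcf7l2 within each array, minus the mean of that ratio on the Ectoderm arrays (vertical axis), for 3 AER arrays (red) and 4 Ectoderm arrays (blue), with the mean and SD in black. The AER means lie 2.14, 2.49, 2.70 and 3.05 above the Ectoderm means, with no overlap, and a scaling factor per array cannot change them. The ratios do not correct for the mix of cells in each dissected piece.

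Ctnnb1, which encodes beta-catenin, was measured by 1 probe printed as 2 spots (chr9:120869274-120869333, plus strand). It gave 5.22, 4.77 and 5.63 on the AER arrays and 5.03, 5.15, 4.94 and 5.21 on the Ectoderm arrays. The AER arrays lay on both sides of the Ectoderm arrays. The difference of 0.12 (95% CI -0.35 to 0.60) did not pass the threshold (limma adjusted p = 0.720), and was -1.74 with epithelial centring. On AER replicate 2 the 2 spots differed 1.74-fold, against 1.01-fold to 1.11-fold on the other arrays. RNA level says nothing of how much of the protein is stabilised or in the nucleus, which was not measured.

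Axin1, the scaffold of the destruction complex (chr17:26332106-26332165, plus strand), had 2.50, 2.80 and 2.31 on the AER arrays and 2.24, 2.17, 2.33 and 2.24 on the Ectoderm arrays. Here AER replicates 1 and 2 were above all Ectoderm arrays and replicate 3 was among them. The difference was 0.29 (95% CI -0.068 to 0.65; limma adjusted p = 0.246), and -1.57 with epithelial centring.

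Axin2, the feedback inhibitor that is widely used as a readout of the pathway, was slightly higher in AER. Probe 1 gave -0.93, -0.46 and -0.79 on the AER arrays and -1.22, -1.35, -1.22 and -1.41 on the Ectoderm arrays. The groups did not overlap, though AER replicate 1 came near the upper Ectoderm arrays. The difference was 0.57 (95% CI 0.21 to 0.94), a 1.49-fold higher level with a limma adjusted p of 0.0428, close to the threshold. It was 0.11 in the authors' values (adjusted p = 0.662), 0.091 with the normexp background (adjusted p = 0.774) and -1.29 with epithelial centring, and 16 of 23 alternatives kept the direction and lost the call.

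Axin2 probe 2, in sequence of 20.0% G and C (chr11:108812034-108812093, plus strand), gave -2.20, -1.87 and -2.25 on the AER arrays and -2.95, -2.54, -2.97 and -3.19 on the Ectoderm arrays. Every AER array was above every Ectoderm array here as well. The difference was 0.81 (adjusted p = 0.0241, limma over all kept probes). It was 0.55 in the authors' values (adjusted p = 0.0277), 0.49 with normexp (adjusted p = 0.0616) and -1.05 with epithelial centring.

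The Naked cuticle homologues Nkd1 and Nkd2, which bind Dishevelled and dampen WNT signalling, did not pass the threshold. Nkd1 had 2.47, 2.79 and 2.77 on the AER arrays and 2.94, 3.01, 2.52 and 2.87 on the Ectoderm arrays at probe 1 (chr8:91116160-91116219, plus strand). The groups overlapped, and the difference was -0.16 (95% CI -0.55 to 0.24; limma adjusted p = 0.566). Nkd1 probe 2 gave a difference of 0.076 (95% CI -0.48 to 0.63).

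Nkd2 at probe 2 (chr13:73957581-73957640, minus strand) had 2.11, 2.96 and 1.70 on the AER arrays and 2.62, 2.35, 2.41 and 2.36 on the Ectoderm arrays. AER replicate 2 was the highest and AER replicate 3 the lowest of all 7 arrays. The difference was -0.18 (95% CI -0.81 to 0.45; limma adjusted p = 0.695). Nkd2 probe 1, whose arrays were far closer together, gave -0.017 (95% CI -0.34 to 0.31). With epithelial centring Nkd1 and Nkd2 were at -2.02 and -2.04, near the median shift of all genes. Thus 1 of the 3 feedback genes, Axin2, passed the threshold, where 15.7% of all genes did.

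Cdx1, a caudal-type homeobox gene that is a known WNT target in the mouse embryo, lay near background in both groups. It gave -2.29, -1.79 and -2.20 on the AER arrays and -3.65, -2.99, -3.27 and -3.71 on the Ectoderm arrays, and all 7 arrays counted as well above background. No Ectoderm array reached an AER array, and the spread was alike in both groups. The level was 2.49-fold higher in AER (95% CI 1.75 to 3.53; log2 difference 1.31; limma adjusted p = 0.00449). The processed signal was 69.6 to 163 units on the AER arrays and 26.4 to 55.8 units on the Ectoderm arrays. The difference was 0.62 in the authors' values (adjusted p = 0.0189), 0.56 with normexp (adjusted p = 0.0375) and -0.55 with epithelial centring (adjusted p = 0.0636).

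Processing choices other than epithelial centring kept the direction of all 6 members that passed the threshold, as the plot of settings shows. All 7 arrays lay on 1 slide in 2 rows, with 1 AER and 3 Ectoderm arrays in row 1 and 2 AER and 1 Ectoderm arrays in row 2. Within row 1 and row 2 the differences were 1.26 and 1.18 for Lef1, 1.42 and 1.97 for Tcf7, -0.94 and -0.90 for Tcf7l1, -0.998 and -1.45 for Tcf7l2, 0.33 and 0.79 for Axin2, and 1.02 and 1.71 for Cdx1. Each row holds a lone array of AER or of Ectoderm, so these differences are given as sizes only, without a call. With row as a block in limma over all 7 arrays, Axin2 lost its call (adjusted p = 0.118). Without Ectoderm replicate 3, whose AER markers were highest, the differences were 1.24, 1.84, -0.87, -1.27, 0.60 and 1.36 in the same order of genes, and Axin2 had an adjusted p of 0.0716.

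**Figure D4:**
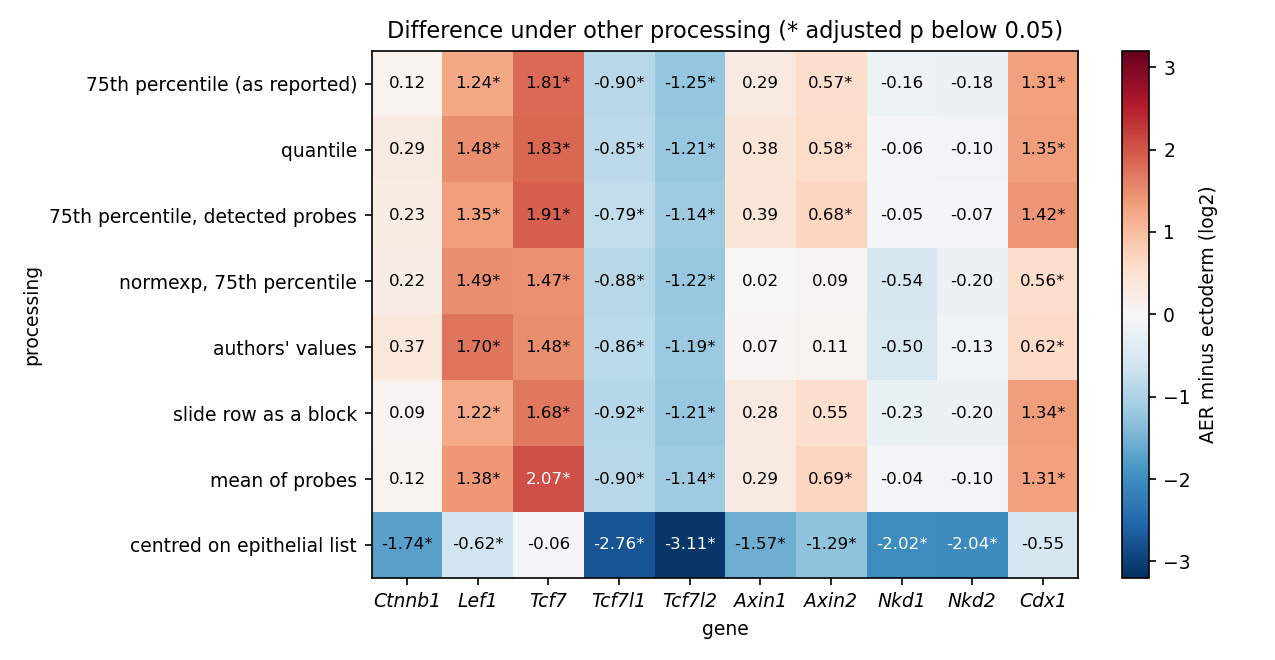
AER minus Ectoderm difference in log2 signal (colour and number) of the 10 genes (columns) under 8 ways of processing (rows), with an asterisk where limma's adjusted p was below 0.05. Lef1, Tcf7, Tcf7l1 and Tcf7l2 keep sign and call in the upper 7 rows, Axin2 falls to 0.091 and 0.11 with normexp and in the authors' values, and in the last row, centred on epithelial genes, all 10 differences are negative.

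Around the members, 4 lists of genes of the same pathway were read from the same fit. The destruction complex and its control had 19 genes tested, of which 0 rose, 1 fell and 18 did not pass the threshold, with a median difference of -0.097. At an unadjusted p below 0.05 in limma the counts were also 0 higher and 1 lower. The gene that fell was Apc2, a relative of the tumour suppressor Apc, with -0.89, -1.16 and -1.74 on the AER arrays and 0.56, 0.66, -0.06 and 0.76 on the Ectoderm arrays. All AER arrays were below all Ectoderm arrays (log2 difference -1.74; limma adjusted p = 0.00254).

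Nuclear co-activators had 15 genes tested, with 1 higher, 1 lower and a median of 0.034. Jup, the plakoglobin of cell junctions and a relative of beta-catenin, was at -2.45, -2.15 and -2.52 on the AER arrays and -3.89, -3.40, -4.40 and -3.48 on the Ectoderm arrays, of which 2 of 4 were above background. Its difference of 1.42 (limma adjusted p = 0.00594) was 0.37 in the authors' values (adjusted p = 0.0886) and -0.44 with epithelial centring. Pygo1, a co-activator that joins beta-catenin through the BCL9 proteins, had a difference of -0.88 (adjusted p = 0.0172), which was -0.30 in the authors' values (adjusted p = 0.171). Both calls were thus lost in the authors' values.

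Nuclear co-repressors and inhibitors had 16 genes tested, with 1 higher, 0 lower and a median of 0.061, and 2 higher and 2 lower at an unadjusted p below 0.05 in limma. Tle4, a Groucho-family co-repressor that TCF proteins recruit, gave -0.47, -0.07 and 0.13 on the AER arrays and -1.79, -1.21, -1.26 and -1.37 on the Ectoderm arrays. The groups stood apart (difference 1.27; limma adjusted p = 0.00380), though with epithelial centring it was -0.59 (adjusted p = 0.0343). Over these 3 lists 4 of 50 genes passed the threshold, against 15.7% of all genes.

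Other target genes moved more, and in both directions. The list was chosen with earlier results of these data known, so its counts are no independent support. Of 23 listed, 4 (Dkk4, T, Cdx2 and Cdx4) did not pass the filter on dim signals. Of the 19 tested, 9 rose, 7 fell and 3 did not pass the threshold, with a median of 0.93. Of all genes 7.03% rose and 8.65% fell. With epithelial centring the median of the list was -0.93, and 2 rose and 10 fell. Of all 20828 genes 172 then rose and 19998 fell, with a median of -1.94. The list also holds Fgf8, which served as an AER marker above, and genes known to answer to other pathways, such as Bmp4 and Sox9.

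The genes named from this list were those with the smallest p. Rnf43, a membrane ubiquitin ligase that removes WNT receptors, was at 1.46, 2.23 and 1.96 on the AER arrays and -1.05, -0.45, -0.96 and -0.50 on the Ectoderm arrays (difference 2.62; limma adjusted p = 0.000160). Lgr5, a receptor for R-spondins, was at -2.61, -2.56 and -2.56 on the AER arrays and 0.87, 1.07, -0.07 and 0.99 on the Ectoderm arrays (difference -3.30; adjusted p = 0.000101). So a negative regulator of WNT receptors was higher and an R-spondin receptor lower on every AER array.

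Sox9, a factor of cartilage precursors, had -0.32, -0.73 and -0.81 on the AER arrays and 1.80, 1.97, 2.56 and 1.82 on the Ectoderm arrays (difference -2.65; limma adjusted p = 0.000120). Fst, the secreted activin antagonist follistatin, had -6.13, -4.81 and -4.08 on the AER arrays, 2 of 3 above background, and 2.29, 1.97, 1.23 and 2.07 on the Ectoderm arrays (difference -6.90; adjusted p = 3.82e-05). These genes fell in AER as the mesenchyme and muscle markers did, whose summed levels are given above, and the part of those cells was not tested.

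**Figure D5:**
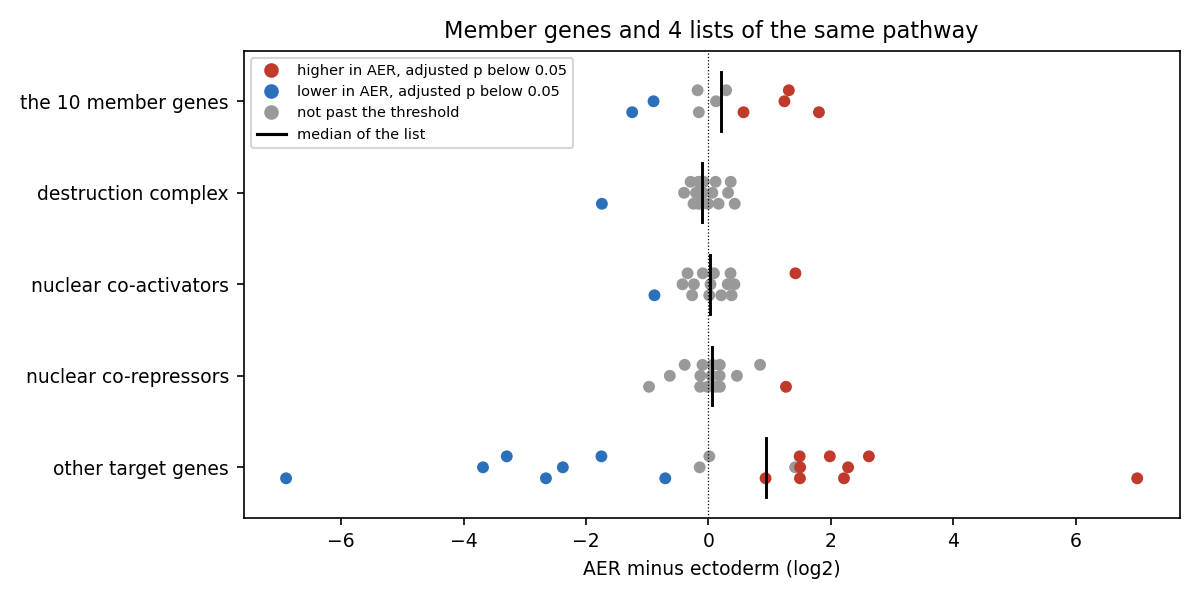
AER minus Ectoderm difference in log2 signal (horizontal axis) of every tested gene of the members and of the 4 pathway lists, scaled to the 75th percentile, with the median of each list as a black bar. The destruction complex, co-activators and co-repressors gather near 0 with medians of -0.097, 0.034 and 0.061. Of the other target genes 16 of 19 passed the threshold, 9 to the right and 7 to the left, against 15.7% of all genes. The lists were chosen with earlier results of these data known, so these counts are no independent support. Epithelial centring moves the median of the other target genes to -0.93 and that of all genes to -1.94.

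The genes most like Tcf7 and Tcf7l2, which had the largest difference past the threshold in each direction among members above background on all arrays, were found by the distance between log2 profiles over the 7 arrays, among 18054 genes above background on all arrays, each centred on its mean. Slc39a14, a metal ion transporter, was nearest to Tcf7 at 0.362, followed by Pon2, a paraoxonase, at 0.371 and Map2, a microtubule-associated protein, at 0.415. For Tcf7l2 the only gene with a symbol among the nearest 3 was Qprt, an enzyme of NAD synthesis, at 0.349. With 7 arrays in 2 groups, such a profile is mostly the group difference itself, which was 1.74, 1.91 and 1.73 for the 3 genes near Tcf7 and -1.43 for Qprt.

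Since TCF/LEF proteins bind short sites that can also lie in promoters of the pathway's own genes, the promoter windows of the members were searched on both strands for the core CTTTGT. The longer form CTTTGAT was searched in the same way, as was the other longer form, CTTTGAA. RefSeq windows of the GRCm38.p6 build, each with 250 bases before and 50 after a start, were given for 8 of 10 members (not Axin1 and Cdx1), in 14 windows. CTTTGT or its reverse complement was found in 3 of 14 windows, and in 18.71% of all 32851 windows. The longer motifs were found in 0 of 14, against 3.73% for CTTTGAT and 5.14% for CTTTGAA. The 3 matches lay in a window of Lef1 (chr3:131156131-131156170, plus strand), in that of Tcf7l1 (chr6:72789051-72789090, minus strand) and in 1 of Tcf7l2 (chr19:55895290-55895329, plus strand). They are shown with the motif in capitals, for Lef1 as the reverse complement.
Lef1: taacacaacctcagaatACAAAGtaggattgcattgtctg
Tcf7l1: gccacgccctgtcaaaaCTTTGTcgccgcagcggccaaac
Tcf7l2: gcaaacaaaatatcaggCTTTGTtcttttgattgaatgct
The share of windows with a match was near that of all windows, so the match sets the members apart in no way that these counts show. It is a match of letters, and binding was not measured.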

How the data were processed

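Total RNA (75 ng per array) was labelled with Cy3 and hybridised to 1-colour Agilent arrays, per the labels' protocols. The deposited scanner files give an intensity per spot, background-subtracted and detrended by Feature Extraction 10.7.3.1 with no scaling between arrays, and other columns with flags, per the file headers. The authors' deposited matrix is on a log2 scale. Per the submitters' processing notes limma was used, without a stated version or step. Tested on the files, normexp with an offset of 50 and quantile normalization gave those values within 0.000108.

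Control spots and spots flagged as uneven or outlying were left out, spots of 1 probe were averaged, and each array's 75th percentile was subtracted on the log2 scale. Probes well above background on at least 3 of 7 arrays were kept (28282 probes, 50.8%). The probe with the highest mean stood for a gene. Names came from the RefSeq accession (26294 probes), symbol (2049) or older symbol (355), otherwise from the file. AER and Ectoderm were tested against each other in limma 3.58.1 (lmFit, then eBayes, two-sided, group as single term, residual degrees of freedom 5, prior 3.50) under R 4.3.3. Further tools were data.table (version 1.17.8), Python 3.11.15, pandas 2.3.3, numpy 2.4.6 and matplotlib 3.10.9. P-values were adjusted by Benjamini-Hochberg over the 20828 genes tested, and 0.05 was the threshold. Other probes of the members come from a second fit of the same design over all kept probes. The code was tested on simulated data. The number of arrays limits the precision.

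The members, the pathway lists and the marker lists were chosen with earlier results of these data known. All 10 members are named, and from each pathway list up to 4 genes with the smallest p past the threshold. Alternatives covered the background correction, the scaling, the authors' values, the filter, the probe that stands for a gene, epithelial centring, slide row, replicate numbers, array weights and leaving out each array. Whether a probe lies in an exon's coding or untranslated portion was not determined, and no sequence is printed for Cdx1.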

Additional observations from a re-analysis of the deposited data

How the results depend on the processing

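With each array centred on the epithelial genes, 20170 genes passed the threshold (172 higher and 19998 lower in AER), as did 0 members higher and 8 lower, and 2 pathway list genes higher and 59 lower. Reversed values there were -0.62 for Lef1, -0.056 for Tcf7, -1.29 for Axin2, -0.55 for Cdx1, -1.74 for Ctnnb1, -1.57 for Axin1, -0.44 for Jup and -0.59 for Tle4. The centring by construction sets the epithelial genes level. Within slide row 1, with 1 AER array, 651 genes passed (239 higher, 412 lower), with 2 members higher and 0 lower, and 2 list genes higher and 4 lower. Within row 2, with 1 Ectoderm array, 1390 passed (547 higher, 843 lower), with 2 members higher and 0 lower and 7 list genes higher. These fits hold fewer arrays, and the lone array is assumed to vary like the others. Ctnnb1 was -0.013 within row 2 and -0.086 without AER replicate 3, and Nkd2 was 0.10 without AER replicate 3, none past the threshold.

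Leaving out each array gave 2199 to 3275 genes, 1020 to 1362 higher and 1179 to 1916 lower, where the 1179 came without Ectoderm replicate 4. Members past the threshold stayed at 3 to 4 higher and 2 lower, and list genes at 11 to 12 higher and 8 to 10 lower. Lef1 then lay at 1.16 to 1.32, Tcf7 at 1.57 to 2.00, Tcf7l1 at -1.01 to -0.82, Tcf7l2 at -1.36 to -1.02, Cdx1 at 1.16 to 1.45 and Axin2 at 0.44 to 0.68. Ctnnb1 lay at -0.086 to 0.34 and Nkd2 at -0.53 to 0.10. Axin2 passed in 1 of 7 of these fits. The cause of its lost calls was not tested.

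Same-numbered AER and Ectoderm arrays deviated together at r = -0.031, 0.19 and 0.13 across genes. Pairs of arrays with different replicate numbers gave -0.26 to 0.18. So few pairs cannot decide whether the numbers pair the samples, and the main fit took the samples as unpaired. With the replicate block 2443 genes passed, and Axin2 was at 0.54 (adjusted p = 0.189) while Lef1, Tcf7, Tcf7l1, Tcf7l2 and Cdx1 still passed. Dim signal limits Cdx1, Axin2, Tcf7 probe 2 and Tcf7l2 probe 3.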
